A study of Homo sapiens with 6 samples.

Results

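The 39 genes described here were listed by symbol as the core machinery of autophagy, and were matched to the rows of the deposited table through their Ensembl identifiers in GENCODE release 29. All 39 had a row among the 18278 listed genes, and 38 had an average over the 6 samples of 10 normalized read counts or more and were tested. MAP1LC3A was the gene below that level. The samples came from Toledo, an established cell line of human diffuse large B cell lymphoma, so the results describe 1 line. Both groups were grown in suspension in RPMI medium for 6 days before harvest. Of the 6 samples, 3 received TP-064, an inhibitor of CARM1, at 5 uM and 3 received DMSO, the solvent. The compound acts on the protein, so the CARM1 transcript does not check the labels; it had 3401, 3500 and 3371 normalized read counts under TP-064 against 4003, 3884 and 4217 under DMSO (log2 fold change -0.24, limma adjusted p = 8.10e-05). The study concerns CARM1 inhibition in lymphomas that carry CREBBP or EP300 mutations, and no genotype is given for the samples themselves. Whether the replicates were separate cultures is not given in the labels, so the p-values cover only how these 6 samples vary, and that variation may be technical.

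Autophagy is the process by which a cell encloses cytoplasm, damaged organelles or tagged protein in a double membrane and delivers them to lysosomes. The ULK kinase complex starts it, the class III PI3-kinase complex marks the membrane with the lipid PI3P, and PI3P-binding and lipid transfer proteins make the membrane grow. A ubiquitin-like conjugation system then attaches ATG8 proteins (the LC3 and GABARAP family) to the membrane, and cargo receptors bind both the cargo and ATG8. CARM1, an arginine methyltransferase, has been described in mouse cells as a coactivator of autophagy and lysosomal genes that works with the transcription factor TFEB.

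Polyadenylated RNA was sequenced from stranded libraries, and 41354131 to 48360867 reads per library were assigned to listed genes. All 7 B cell markers had a row, with a summed level of 106566 to 114045 normalized read counts in the TP-064 samples and 101166 to 103250 in the DMSO samples. Of the markers of other cell types, 1 of 7 for T and NK cells (TRAC, 83.1 to 90.0 under TP-064 and 24.9 to 39.8 under DMSO) had a row. Of 7 myeloid markers 3 had one, summing to 71.2 to 99.5 under TP-064 and 34.6 to 65.6 under DMSO. They did not move together: CSF1R was higher (64.3 under TP-064 and 12.6 under DMSO on average, limma adjusted p = 1.37e-05), CD14 was lower (6.26 under TP-064 and 16.8 under DMSO, limma adjusted p = 0.0117) and LYZ was not called. Of 8 epithelial and stromal markers 3 had a row, with sums of 148 to 164 under TP-064 and 301 to 336 under DMSO. The other markers were not analysed here, and the part of these levels in the results was not tested. TP-064 replicate 3 stood apart from replicates 1 and 2 on the second principal component (-35.2 against 21.3 and 16.8), so results are also given without it. RNA was measured in bulk, in which a shift in the mix of cell states and a shift in RNA per cell cannot be told apart.

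Proximal promoters are shown first for the related kinases ULK1 and ULK2, which moved in opposite directions, and for the genes with an E-box (CACGTG), the hexamer at the centre of the element bound by TFEB. RefSeq promoter sequences (GRCh38.p14, 250 bases before to 50 bases after the start site) were found for 34 of the 39 genes. They are written in the direction of transcription in lower case, with E-boxes in capitals. The ULK1 promoter lies at chr12:131894372-131894671 on the plus strand and that of ULK2 at chr17:19867887-19868186 on the minus strand. The ATG14 promoter lies at chr14:55411781-55412080 and that of ATG3 at chr3:112561913-112562212, both on the minus strand.
ULK1: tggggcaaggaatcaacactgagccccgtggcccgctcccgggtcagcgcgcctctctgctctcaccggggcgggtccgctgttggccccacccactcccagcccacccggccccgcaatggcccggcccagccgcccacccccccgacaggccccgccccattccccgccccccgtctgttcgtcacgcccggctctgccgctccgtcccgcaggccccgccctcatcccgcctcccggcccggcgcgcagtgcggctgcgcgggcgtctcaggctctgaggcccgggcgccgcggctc
ULK2: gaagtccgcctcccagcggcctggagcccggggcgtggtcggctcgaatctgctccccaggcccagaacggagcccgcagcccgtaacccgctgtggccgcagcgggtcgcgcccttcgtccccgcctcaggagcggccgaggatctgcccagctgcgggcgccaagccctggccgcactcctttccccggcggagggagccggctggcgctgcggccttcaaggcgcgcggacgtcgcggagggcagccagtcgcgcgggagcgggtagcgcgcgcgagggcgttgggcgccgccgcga
ATG14: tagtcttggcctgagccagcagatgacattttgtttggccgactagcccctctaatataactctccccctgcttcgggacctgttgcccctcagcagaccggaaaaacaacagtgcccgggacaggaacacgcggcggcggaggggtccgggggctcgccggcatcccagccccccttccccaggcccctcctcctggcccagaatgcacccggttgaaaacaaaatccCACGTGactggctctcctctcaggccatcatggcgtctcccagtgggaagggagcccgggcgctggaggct
ATG3: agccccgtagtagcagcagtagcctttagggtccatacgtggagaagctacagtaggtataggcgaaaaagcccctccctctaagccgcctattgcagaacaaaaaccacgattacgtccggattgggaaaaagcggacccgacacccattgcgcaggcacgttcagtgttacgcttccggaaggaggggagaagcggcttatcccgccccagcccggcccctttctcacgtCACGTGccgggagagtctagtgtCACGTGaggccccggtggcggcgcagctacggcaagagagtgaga
The E-box begins 21 bases before the start site in ATG14, and in ATG3 one begins 18 bases before it and another at base 6 after it. The hexamer, which reads the same on both strands, was in 2 of 43 promoters of the listed genes (4.65%; some genes have more than 1) and in 7.26% of all 35116 promoters. The longer TFEB element, called CLEAR, was in 0 of the 43 and in 0.353% of all, and its core TCACGTGA in 1 (ATG3, around the second E-box) and in 0.98% of all. Searched on both strands, the FOXO motif GTAAACA was in 2 of the 43 (CALCOCO2 and WDR45) against 3.42% of all, the cyclic AMP response element TGACGTCA in 1 (GABARAPL1) against 1.85%, and the E2F motif TTTCCCGC in 0 against 1.63%. The ULK1 and ULK2 promoters held none of the motifs searched. A match describes these letters within this window and is not a measured binding site, and the lack of a match says only that the letters are not in it. ATG14 and ATG3, the genes with an E-box, changed in opposite directions.

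Under TP-064, 24 of the 38 tested autophagy genes rose, 6 fell and 8 did not pass the test. The two-sided test was limma, run on normalized read counts after adding 1 and taking log2, at a Benjamini-Hochberg adjusted p under 0.05 over all 16048 genes tested. Of all genes tested, 65.1% passed, 31.9% being higher and 33.3% lower, so the share of autophagy genes called higher (63.2%) stood above the background and the share called lower (15.8%) below it. Among protein-coding genes tested, 73.6% passed, 34.3% being higher and 39.3% lower. Among protein-coding genes with a mean of 200 or more, 79.1% passed, 35.5% being higher and 43.6% lower, and 37 of the 38 autophagy genes lay in that range. The median log2 fold change was 0.34 over the 38 genes and 0.01 over all genes. The changes were modest, ranging from -1.38 for ULK2 to 0.86 for WIPI1. Only 5 genes (BECN1, WIPI1, MAP1LC3B, NBR1 and OPTN) rose and 1 (ULK2) fell by at least 1.5-fold, or 13.2% and 2.63% of the 38. Of all genes, 14% rose and 13.5% fell by that much, of protein-coding genes 13.2% and 14.4%, and of those with a mean of 200 or more 10.1% and 13.5%. The share with a rise of this size was thus near the background.

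**Figure D1:**
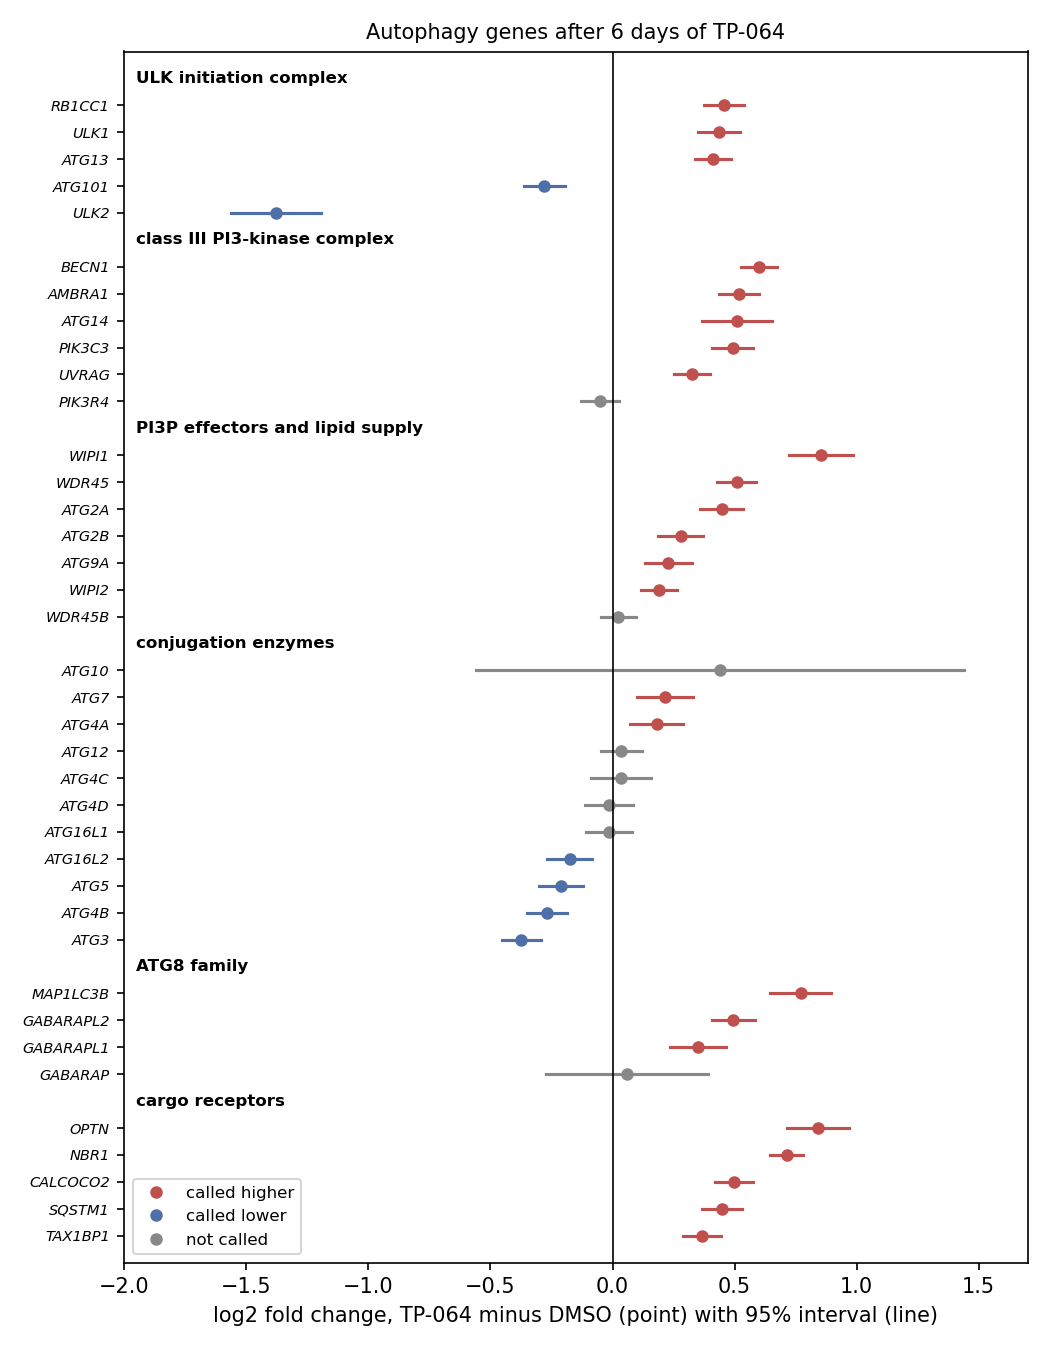
Log2 fold change (TP-064 minus DMSO) of the 38 tested autophagy genes, grouped by role, with 95% intervals as lines; red is called higher, blue called lower and grey not called. Most genes lie between 0 and 0.9, ULK2 lies alone at -1.38, and the conjugation enzymes lie on both sides of 0.

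TP-064 and DMSO values overlapped in 7 of the 38 genes. They did so in 4962 of all 16048 genes tested, and in 1768 of the 9624 protein-coding genes with a mean of 200 or more. Against that last background, the lack of overlap alone did not set the autophagy genes apart, and the difference lay in the direction. All 3 TP-064 values lay above all 3 DMSO values in 24 of the 38 genes, where 33.9% of all genes, 35.7% of protein-coding genes and 36.7% of those with a mean of 200 or more did so. They lay below in 7, against 35.2%, 40.9% and 45% in the same backgrounds. Without TP-064 replicate 3, 24 of the 38 autophagy genes were higher and 7 lower, against 4967 and 5176 of all 16048 genes tested. When values were scaled by library size only, all genes together had a median of 0.13, 61.5% of all calls were higher in place of 48.9%, and the autophagy genes stood at 29 higher and 4 lower with a median of 0.46. Of all 16048 genes tested, 6653 were called higher and 4158 lower with library size scaling. The direction of the autophagy genes as a group held under each scaling. Their count of rises of at least 1.5-fold was 11 in place of 5 with library size scaling, which moved all genes upward. How many of all genes then rose by that much was not counted, so the 11 has no background beside it.

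**Figure D2:**
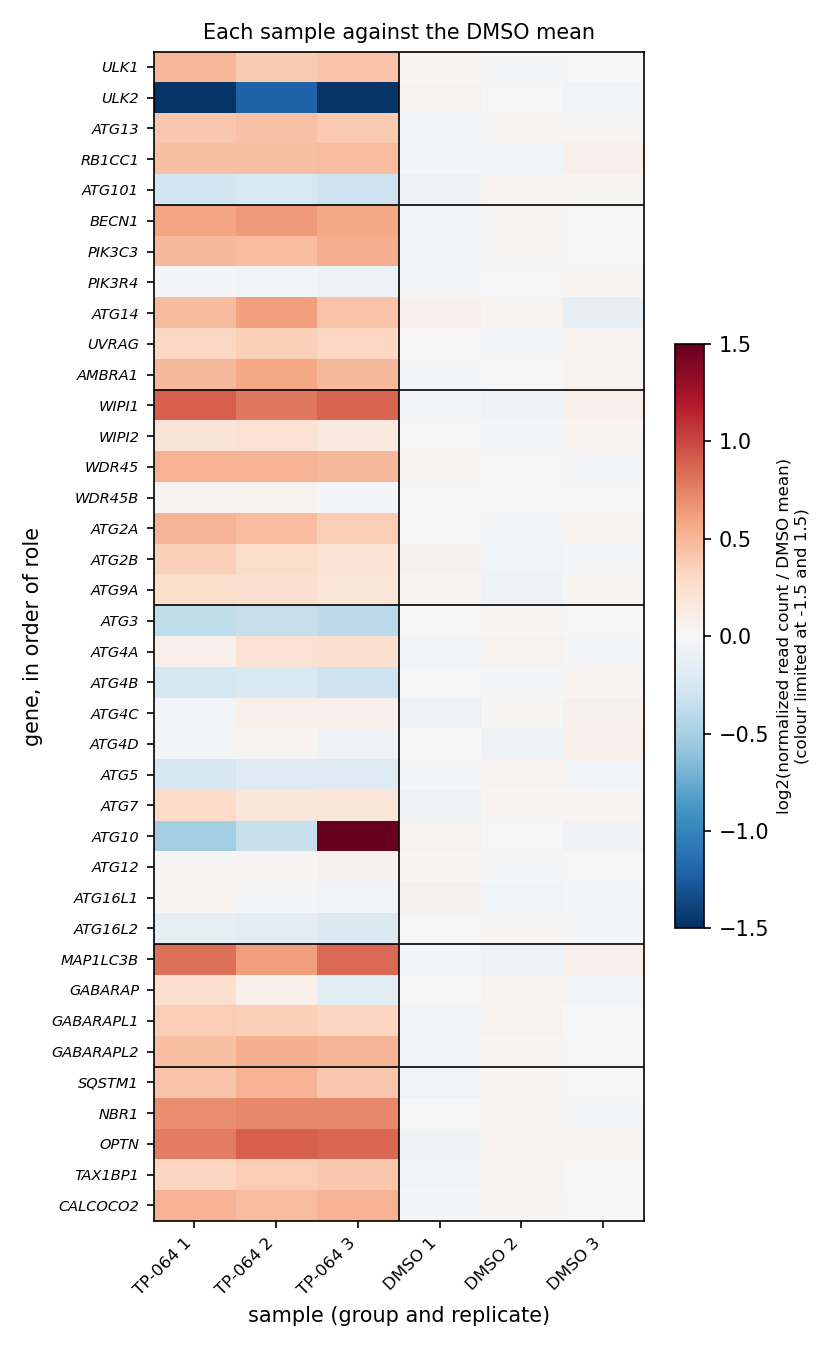
Log2 of each sample's normalized read count over the gene's DMSO mean, for the 38 tested genes in rows by role and the 6 samples in columns, TP-064 on the left; colours stop at -1.5 and 1.5. The TP-064 columns are alike in most rows, and in ATG10 replicate 3 is high while replicates 1 and 2 are low.

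In the ULK complex, which starts autophagosome formation, 3 genes rose and 2 fell. These were 60% and 40% of its 5 genes, against 31.9% and 33.3% of all genes. ULK2 (chr17:19770829-19867936 in GRCh38, minus strand), one of a pair of related kinases, had 184, 219 and 183 normalized read counts in the TP-064 samples against 524, 505 and 492 in the DMSO samples. All TP-064 samples were far below all DMSO samples. The log2 fold change was -1.38 (SE 0.09, limma adjusted p = 2.00e-09), the largest change among the 38 genes. ULK1, the other kinase, moved the other way, with 3138, 2927 and 3000 under TP-064 against 2284, 2183 and 2222 under DMSO, a rise of 0.44 (SE 0.04, limma adjusted p = 1.60e-07). The ratio of ULK1 to ULK2 normalized counts within a library was therefore 17.1, 13.4 and 16.4 under TP-064 and 4.36, 4.32 and 4.52 under DMSO. The groups were well apart on that ratio. Per kilobase of annotated exon, ULK2 averaged 19.8 and 51.5 normalized counts under TP-064 and DMSO, and ULK1 397 and 293. This length takes in the exons of every annotated isoform, so levels of different genes can be compared only roughly. Of the scaffold proteins, ATG13 rose by 0.41 (SE 0.03) and RB1CC1, also called FIP200, by 0.46 (SE 0.04). ATG101, which stabilises ATG13, fell by 0.28 (SE 0.04, limma adjusted p = 1.89e-05), with 2849, 2958 and 2817 under TP-064 against 3342, 3598 and 3526 under DMSO.

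In the class III PI3-kinase complex, 5 of 6 genes rose and none fell. The share called higher was 83.3%, against 31.9% of all genes and 34.3% of protein-coding genes. BECN1 (Beclin 1), the regulatory subunit around which the complex is built (chr17:42810134-42833350, minus strand), had 7094, 7328 and 6938 normalized read counts under TP-064 against 4623, 4738 and 4713 under DMSO. The groups were far apart relative to their spread, and the log2 fold change was 0.60 (SE 0.03, limma adjusted p = 7.44e-10). PIK3C3, the lipid kinase VPS34, rose by 0.49 (SE 0.04) and averaged 2827 ± 83.6 under TP-064 and 2008 ± 27.2 under DMSO (SD, 3 samples each). ATG14 and UVRAG occupy the same place on Beclin 1 and direct the kinase to autophagosomes or to endosomes. ATG14 rose by 0.51 (SE 0.07) and UVRAG by 0.33 (SE 0.03). AMBRA1, a Beclin 1 partner, rose by 0.52 (SE 0.04). PIK3R4, the scaffold VPS15, did not pass the test, with 3404, 3363 and 3237 under TP-064 against 3412, 3432 and 3515 under DMSO. Its values did not overlap, but the difference was small, at -0.05 with a 95% interval of -0.13 to 0.03.

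Of the 7 genes that act on PI3P-marked membrane, 6 rose and none fell. The share called higher was 85.7%, against 31.9% of all genes and 34.3% of protein-coding genes. WIPI1, a PI3P-binding propeller protein often used as a transcript marker of autophagy (chr17:68420948-68457513, minus strand), had 840, 782 and 826 normalized read counts under TP-064 against 440, 435 and 477 under DMSO. No DMSO value came near the TP-064 values, and the rise of 0.86 (SE 0.06, limma adjusted p = 9.92e-09) was the highest estimate among the autophagy genes, with that of OPTN within its error. Its relative WIPI2, which recruits the conjugation machinery, rose by 0.19 (SE 0.03), and the ratio of WIPI1 to WIPI2 was 0.0748 to 0.0835 under TP-064 and 0.0493 to 0.0522 under DMSO. WDR45 (WIPI4) rose by 0.51 (SE 0.04), with 13.9% of its exon length shared with PRAF2 on the same strand. WDR45B (WIPI3) was not called, at 0.02 with a 95% interval of -0.05 to 0.10. The lipid transfer proteins ATG2A and ATG2B rose by 0.45 (SE 0.04) and 0.28 (SE 0.04). ATG9A, the membrane protein whose vesicles seed the autophagosome, rose by 0.23 (SE 0.05), and 38.8% of its exon length lies in exons of another annotated gene on the same strand.

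Of the 11 conjugation enzymes, 2 rose, 4 fell and 5 were not called, with a median log2 fold change of -0.01. Their share called higher, 18.2%, was below the 31.9% of all genes and their share called lower, 36.4%, was near the 33.3% of all genes. ATG3 (chr3:112532509-112562046, minus strand), the enzyme that transfers ATG8 to lipid, had 2106, 2171 and 2091 normalized read counts under TP-064 against 2731, 2780 and 2736 under DMSO. The TP-064 samples were all lower, with a log2 difference of -0.37 (SE 0.04, limma adjusted p = 4.29e-07), the largest fall in this role. ATG7, the activating enzyme upstream of ATG3, instead rose by 0.22 (SE 0.05, limma adjusted p = 0.00250). The ATG12 arm builds the complex that directs ATG3 to the membrane. In it ATG5 fell by 0.21 (SE 0.04), ATG12 was not called at 0.04 (95% interval -0.05 to 0.12), and ATG16L1 was not called at -0.01 (95% interval -0.11 to 0.08). ATG16L2, a relative of ATG16L1, fell by 0.18 (SE 0.04). Of the ATG4 proteases, which trim ATG8 and release it from lipid, ATG4B fell by 0.27 (SE 0.04) and ATG4A rose by 0.18 (SE 0.05). ATG4C and ATG4D were not called, at 0.03 (95% interval -0.09 to 0.16) and -0.01 (95% interval -0.11 to 0.09). The falls of ATG5 and ATG16L2 did not pass the test under library size scaling, where they stood at -0.09 and -0.05.

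**Figure D3:**
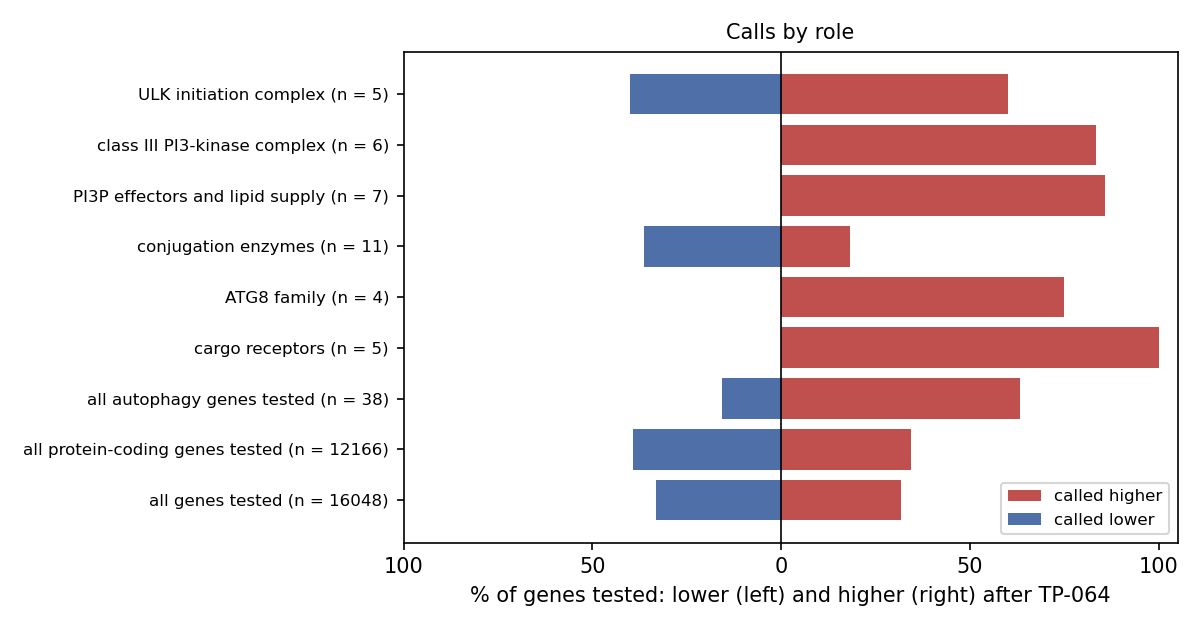
Percent of tested genes called lower (left of 0) and higher (right of 0) under TP-064, for each role, for all 38 autophagy genes and for all protein-coding and all genes tested. The cargo receptors reach 100% higher and 0% lower, and the conjugation enzymes have more genes lower (36.4%) than higher (18.2%).

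ATG10 (chr5:81972025-82276857, plus strand), the enzyme that joins ATG12 to ATG5, rested on 1 library. It had 323, 365 and 2100 normalized read counts in TP-064 replicates 1, 2 and 3 against 482, 459 and 448 in the DMSO samples. Replicate 3 was above every DMSO value while replicates 1 and 2 were below all of them, and the gene did not pass the test (0.44, SE 0.47, limma adjusted p = 0.429). Without replicate 3, ATG10 was lower at -0.43 (limma adjusted p = 0.000224). The 3' end of ATG10 shares 374 bases of exon with RPS23, an abundant ribosomal protein gene on the opposite strand, which had 62190, 67792 and 65823 under TP-064 and 59465, 64336 and 62151 under DMSO. ATG10 was 3.19% of the RPS23 level in TP-064 replicate 3 and 0.519% to 0.810% in the other 5 libraries. The part of opposite-strand reads in the ATG10 value was not tested. In the other 37 tested autophagy genes, TP-064 replicate 3 was between 0.80 and 1.09 times the mean of replicates 1 and 2. Opposite-strand exons overlap those of 19 of the 39 genes, among them BECN1, WIPI1, MAP1LC3B, NBR1 and ATG3 but not ULK2 and OPTN. Their 23 listed opposite-strand partners include 17 that were tested, in which TP-064 replicate 3 was 0.888 to 1.10 times the mean of replicates 1 and 2. Of the 6 partners below the tested level, 5 were higher in TP-064 replicate 3 than in every other library. CNTD1, opposite BECN1, had 0, 9.89 and 41.6 normalized read counts under TP-064 against 0, 2.98 and 3.24 under DMSO. AC120057.3, opposite GABARAP, had 0.874, 0.989 and 18.3 under TP-064 against 1.04, 0 and 1.08 under DMSO. AC025259.1, opposite ATG101, had 0.874, 0 and 36.6 under TP-064 against 7.27, 3.98 and 2.16 under DMSO. AC005091.1, opposite TAX1BP1, had 2.62, 3.96 and 18.3 under TP-064 against 7.27, 4.97 and 7.57 under DMSO. UVRAG-DT, opposite UVRAG, had 9.61, 7.91 and 14.2 under TP-064 against 4.15, 0.994 and 1.08 under DMSO. AC007780.1, opposite WIPI1, was the exception, with 14.9, 11.9 and 6.09 under TP-064 against 8.31, 8.95 and 5.41 under DMSO. GABARAP itself was lowest in TP-064 replicate 3, at 64.0. How many other genes at such low levels were also highest in that library was not tested, so these values are not tied to the overlaps. The libraries were stranded, the setting used for counting is not stated, and the part of such overlaps in the other results was not tested.

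**Figure D4:**
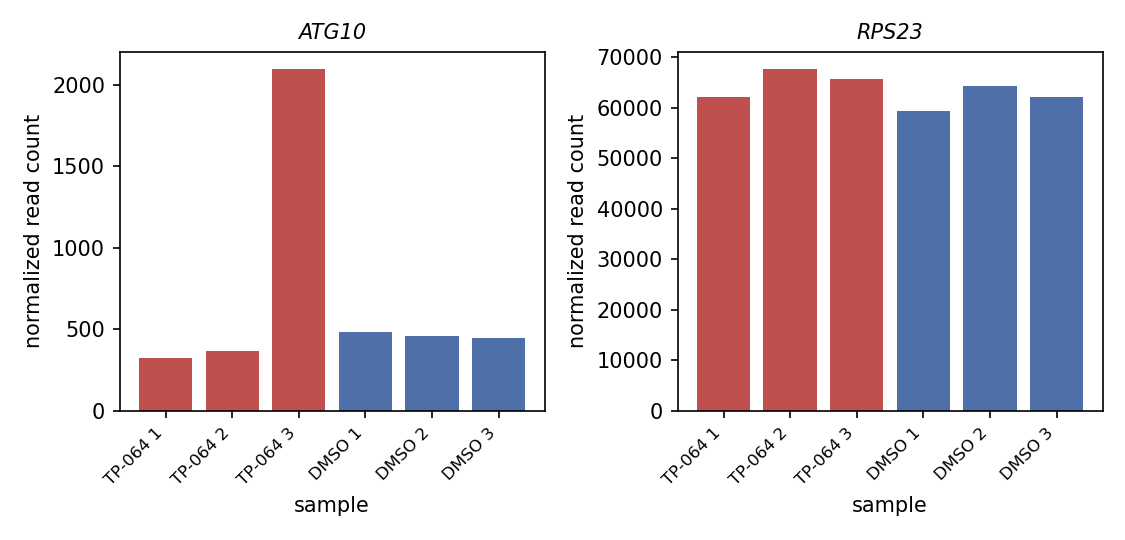
Normalized read counts of ATG10 (left) and of its opposite-strand neighbour RPS23 (right) in each sample, TP-064 in red and DMSO in blue, with bars from 0. ATG10 reaches 2100 in TP-064 replicate 3 and lies between 323 and 482 elsewhere, while RPS23 lies between 59465 and 67792 in all samples.

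Of the ATG8 family, the ubiquitin-like proteins attached to the autophagosome, 3 of 4 tested genes rose. The share called higher was 75%, against 31.9% of all genes and 34.3% of protein-coding genes. MAP1LC3B, the source of LC3B (chr16:87383995-87404779, plus strand), had 2311, 2025 and 2361 normalized read counts under TP-064 against 1295, 1246 and 1379 under DMSO. Every TP-064 sample was above every DMSO sample, and the rise was 0.77 (SE 0.06, limma adjusted p = 1.83e-08). GABARAPL2 rose by 0.49 (SE 0.04) and GABARAPL1 by 0.35 (SE 0.05). On the rough scale per kilobase of exon, GABARAPL2 had the highest level of the family, at 835 normalized counts under TP-064 and 592 under DMSO. MAP1LC3B followed at 420 and 246, and GABARAPL1 at 214 and 168. GABARAP itself stood at 32.9 and 31.4 per kilobase and was not called (0.06, 95% interval -0.27 to 0.39), with 84.8, 75.2 and 64.0 normalized read counts under TP-064 against 70.6, 73.6 and 69.2 under DMSO. In GENCODE release 29, 30.5% of the GABARAP exon length lies in exons of AC120057.2 on the same strand, and the sources used here do not give how reads shared by such genes were counted. The low level of GABARAP is uncertain for that reason. MAP1LC3A was at the lower end of the measurement, with 5.24, 11.9 and 14.2 under TP-064 and 9.34, 7.95 and 6.49 under DMSO, and was not tested.

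All 5 cargo receptors rose, and all TP-064 values lay above all DMSO values in each of them. Of all genes, 31.9% were called higher and 33.9% had all TP-064 values above all DMSO values. Among protein-coding genes with a mean of 200 or more, these shares were 35.5% and 36.7%. NBR1, which binds ubiquitinated protein and peroxisomes (chr17:43170481-43211689, plus strand), had 12851, 13113 and 13152 normalized read counts under TP-064 against 7963, 8032 and 7870 under DMSO. Its log2 fold change was 0.71 (SE 0.03), with the smallest p among the 38 genes (limma adjusted p = 3.79e-11). Per kilobase of exon NBR1 averaged 1551 normalized counts under TP-064 and 946 under DMSO. OPTN (optineurin), a receptor for mitochondria and bacteria (chr10:13099449-13138308, plus strand), had 854, 938 and 914 under TP-064 against 479, 517 and 512 under DMSO. It had the lowest level per kilobase of the 5 (176 normalized counts under TP-064 and 97.8 under DMSO) and the highest estimate, a rise of 0.84 (SE 0.06, limma adjusted p = 8.84e-09). SQSTM1 (p62), which gathers ubiquitinated protein into condensates, rose by 0.45 (SE 0.04), to 6753 ± 290 under TP-064 against 4943 ± 119 under DMSO (SD, 3 samples each). CALCOCO2 (NDP52) rose by 0.50 (SE 0.04) and its relative TAX1BP1 by 0.37 (SE 0.04).

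**Figure D5:**
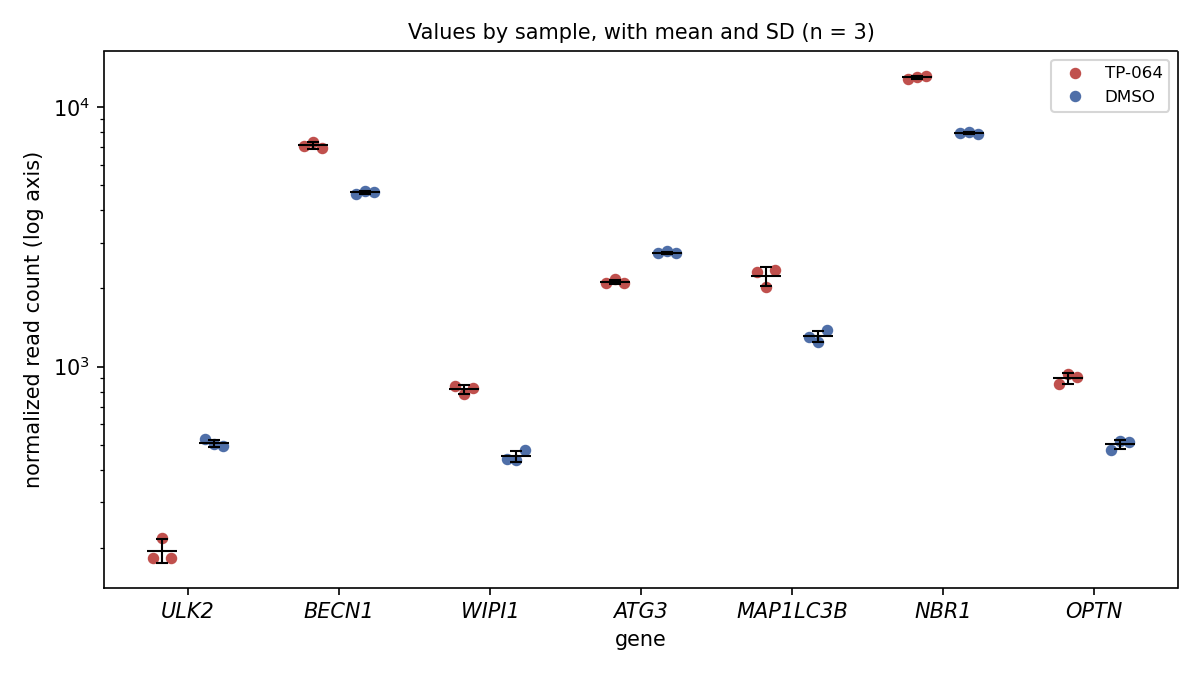
Normalized read counts (log axis) of the 6 autophagy genes that changed by at least 1.5-fold and of ATG3, by sample, TP-064 in red on the left and DMSO in blue on the right of each gene, with mean and SD (n = 3 each). The groups do not overlap in any of the 7 genes, and ULK2 and ATG3 are lower under TP-064.

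Other genes of the pathway, 79 in number, were listed by role. Of these, 76 were tested, 48 rose, 14 fell and 14 were not called, with a median log2 fold change of 0.26. The share called higher, 63.2%, was the same as in the core machinery, against 31.9% of all genes and 34.3% of protein-coding genes. The share called lower was 18.4%, against 33.3% of all genes and 39.3% of protein-coding genes. MITF, PRKAA2 and WDFY3 were not analysed here.

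Among transcription factors of autophagy and lysosomal genes and the regulators of these factors, 8 of 10 rose and 2 fell. These were 80% and 20%, against 31.9% and 33.3% of all genes. The 8 were TFE3, TFEC, FOXO3, FOXO4, ZKSCAN3, FLCN, FNIP1 and FNIP2. They take in FLCN, FNIP1 and FNIP2, which restrain TFEB and TFE3, so the count is not one of activators alone. TFEB, the factor that CARM1 is reported to work with, fell by 0.27 (SE 0.04, limma adjusted p = 9.05e-05), with 1600, 1685 and 1544 normalized read counts under TP-064 against 1919, 1901 and 1983 under DMSO. Its relative TFE3 rose by 0.41 (SE 0.04), so that the related factors moved apart. FLCN (folliculin), which with FNIP1 or FNIP2 forms the complex through which mTORC1 holds TFEB and TFE3 in the cytoplasm, had 3014, 3059 and 2878 under TP-064 against 1174, 1073 and 1140 under DMSO. It rose by 1.40 (SE 0.05, limma adjusted p = 1.10e-12), and FNIP1 by 0.84 (SE 0.04). FNIP2 rose by 1.57 (SE 0.19) at a low level of 86.7 ± 8.25 under TP-064 and 28.7 ± 4.17 under DMSO (SD, 3 samples each). FOXO4 rose by 0.65 (SE 0.05) and FOXO3 by 0.51 (SE 0.04), while FOXO1 fell by 0.46 (SE 0.04). FOXO factors activate autophagy genes in starved cells and tissues.

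Of 16 tested genes of mTORC1, which inhibits ULK1, and of AMPK, which activates it, 7 rose, 4 fell and 5 were not called. These shares, 43.8% higher and 25% lower, were not far from the 31.9% and 33.3% of all genes. MTOR was not called (0.06, SE 0.04, limma adjusted p = 0.162), nor was PRKAA1, the AMPK catalytic subunit (0.03, SE 0.04, limma adjusted p = 0.502). TSC1, a subunit of the complex that switches mTORC1 off, rose by 0.80 (SE 0.04). It averaged 3758 ± 181 under TP-064 against 2154 ± 43.6 under DMSO (SD, 3 samples each). The other subunits did not follow it alike: TSC2 rose by 0.31 (SE 0.03) and TBC1D7 was lower at -0.48 (SE 0.05, limma adjusted p = 6.34e-07). DEPTOR, an inhibitor within mTOR complexes, rose by 0.80 (SE 0.12), and PRKAG2, an AMPK subunit at 39.9 and 19.8 normalized counts under TP-064 and DMSO, by 1.02 (SE 0.30), a call that did not hold in each fit with a replicate left out (limma adjusted p up to 0.0557). SKP2, a ubiquitin ligase subunit described in mouse cells as a nuclear regulator of CARM1 protein below AMPK, had 4105, 4571 and 4000 under TP-064 against 7347, 7451 and 7327 under DMSO. It fell by 0.81 (SE 0.04, limma adjusted p = 5.31e-10), with every TP-064 sample far below the DMSO samples. SKP2 is also a gene of cell cycle entry.

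Further genes of the autophagosome membrane and partners of the class III PI3-kinase rose in 11 of 16 cases and fell in 2 (68.8% and 12.5%). This count does not separate genes that promote autophagy from those that limit it, such as MTMR14. Of all genes, 31.9% were called higher and 33.3% lower. TP53INP1, which binds ATG8 proteins and is known as a p53 target, had 5364, 5005 and 5681 normalized read counts under TP-064 against 762, 704 and 752 under DMSO. This was the largest change among the tested genes of both lists, at 2.85 (SE 0.05, limma adjusted p = 6.55e-15). ZFYVE1 (DFCP1), a PI3P-binding protein that marks the site of autophagosome formation, rose by 0.71 (SE 0.05), TECPR1 by 0.69 (SE 0.04), and MTMR14, a phosphatase that removes PI3P and limits autophagy, by 0.61 (SE 0.04). Of 15 genes of fusion with the lysosome 12 rose and 2 fell (80% and 13.3%, against the same shares of all genes). VPS41 and VPS18, subunits of the HOPS tether, rose by 0.82 (SE 0.03) and 0.60 (SE 0.04), and RILP, a RAB7 effector at 74.7 ± 4.87 under TP-064 and 23.5 ± 11.1 under DMSO (SD, 3 samples each), by 1.73 (SE 0.27).

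Of 19 further receptors of selective autophagy, 10 rose, 4 fell and 5 were not called, with a median log2 fold change of 0.15. Of these receptors 52.6% were higher and 21.1% lower, where 31.9% and 33.3% of all genes and 34.3% and 39.3% of protein-coding genes were. CALCOCO1, a receptor for the endoplasmic reticulum and a relative of CALCOCO2, had 5471, 5094 and 5120 normalized read counts under TP-064 against 1456, 1413 and 1410 under DMSO. The rise was 1.87 (SE 0.04, limma adjusted p = 2.27e-14), and the ratio of CALCOCO1 to CALCOCO2 was 1.13 to 1.20 under TP-064 and 0.437 to 0.469 under DMSO. TOLLIP and NIPSNAP1, which take part in the clearance of protein aggregates and of mitochondria, each rose by 0.59 (SE 0.04 and 0.05). RTN3, another receptor of the endoplasmic reticulum, fell by 0.64 (SE 0.04), to 2520 ± 54.3 under TP-064 against 3932 ± 54.0 under DMSO (SD, 3 samples each). RETREG1, also a receptor of the endoplasmic reticulum, was close to the lowest level tested. It stood at 9.93 normalized counts under TP-064 and 18.0 under DMSO (log2 fold change -0.79, SE 0.32), and the call did not hold in each fit with a replicate left out (limma adjusted p up to 0.159).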

How the data were processed

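RNA from 6 samples of the Toledo line (3 TP-064, 3 DMSO) was measured. The tools named in the submitters' processing notes are DESeq 1.18.0, TopHat2 2.0.10 and HTSeq 0.6.0, with build hg38. The sources used here give neither annotation release nor strand setting. The authors deposited a signal per gene and sample, the read count divided by a size factor (0.925 to 1.14). In each column 100% of values were whole multiples of 1 step (tolerance 0.001). For replicate 2 of both groups the step is within about 1% of 1, so recovery there rests on the unrounded decimals.

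Values are normalized read counts. limma 3.58.1 (R 4.3.3, trend option, 4 residual degrees of freedom, no replicate block) was fitted to log2 of the value plus 1 for the 16048 genes with a mean of at least 10, after tests on simulated data. Differences are given as TP-064 minus DMSO in log2 units of value plus 1, a scale that understates low genes. The 39 genes and the lists were chosen with earlier results of these data known, so no list was tested as a set. All 39 genes are named; values per sample are given for members changed at least 1.5-fold, for the most significant conjugation enzyme, and for others chosen after their values were seen. Other pathway genes are named where called and changed at least 1.5-fold (up to 4 per role and direction), except 1 that enters the counts but is not reported here; TFEB, TFE3, FOXO1, FOXO3, MTOR and PRKAA1 were added after their values were seen. Symbols, positions and exon lengths come from GENCODE release 29 (18214 of 18278 identifiers matched) and promoters from RefSeq. Alternatives were pseudocounts of 0.5 and 5, other filters, library size and TMM scaling, edgeR 4.0.16 and DESeq2 1.42.0 on recovered reads, a replicate block, each replicate left out and a threshold of 0.01.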

Additional observations from a re-analysis of the deposited data

How the results depend on the processing

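Of the 30 called autophagy genes, 28 kept direction and call under all 16 alternatives listed in the processing; ATG5 and ATG16L2 lost the call with library size scaling. The counts of called genes stayed within 1.5 times of those reported, apart from those that follow. With library size scaling, 12 autophagy genes changed at least 1.5-fold (11 of them higher) and 8 other pathway genes were lower. ATG16L1 stood at 0.11, ATG4D at 0.11 and PIK3R4 at 0.072. All genes moved upward with that scaling (median 0.13), and their changes of at least 1.5-fold were not counted under it. ATG16L1 and ATG4D, not called, were also above 0 with TMM scaling (0.013 and 0.014) and edgeR (0.014 each). When genes with exon overlap on the opposite strand were left out, an alternative chosen after seeing the data, 19 autophagy genes remained in the test, of which 16 were called (14 higher, 2 lower) and 2 changed at least 1.5-fold (1 higher); fewer genes entered by construction. With single replicates left out, ATG10 ranged from -0.43 to 0.92, ATG4D from -0.050 to 0.024, ATG16L1 from -0.038 to 0.015, ATG4C from -0.0068 to 0.073 and GABARAP from -0.035 to 0.17.

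For same-numbered samples, the correlations of deviations from the group means were -0.09, 0.07 and -0.08 for replicates 1, 2 and 3. Pairs with different numbers ran from -0.11 to 0.15, so these values cannot decide whether the samples were paired. With a replicate block, 10491 genes were called in place of 10449, and 30 autophagy genes and 62 other pathway genes, as without it. On the recovered reads edgeR called 10562 genes and DESeq2 9724. At these depths the genes near 10 normalized counts (MAP1LC3A, RETREG1) are limited by counting.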
